A study of Rattus norvegicus with 35 samples.

Results

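The respiratory chain was followed here through the genes that encode it, in RNA of rat kidney cortex. A gene entered where the authors' table calls it protein coding and either places it on the mitochondrial chromosome or gives it a name that starts with Nduf, Sdha, Sdhb, Sdhc, Sdhd, Uqcr, Cox4, Cox5, Cox6, Cox7, Cox8 or Atp5. This rule took 108 of the 32545 listed genes, of which 103 reached 1 FPKM in at least 5 libraries and are called members below. FPKM, fragments scaled to gene length and to the depth of the library, is a level corrected for gene length. FPKM thus sets genes of different length side by side, except where a gene shares bases or reads with another. The RNA was selected with poly-T beads, and how evenly they captured mitochondrial and nuclear RNAs was not measured. Levels of different genes are therefore compared below as FPKM only, not as amounts of transcript. The members were 13 mitochondrially encoded genes and 90 nuclear ones, and 76 of the nuclear members are rows named for subunits. Some of these rows share a name or may be copies, as listed below. Each row was counted as 1 member in all counts and mean values. The nuclear subunits divided into 33 of complex I, 4 of complex II, 7 of complex III, 16 of complex IV and 16 of ATP synthase. The other 14 nuclear members encode assembly factors or related proteins and are called factors.

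The 35 libraries came from female and male rats, which the labels call WT, and the strain is not named in the sources used here. At 8 weeks of age every animal received a blood pressure telemeter, and a few days later it began 1 of 3 diets that all held 4% NaCl. The diets were deficient in potassium (DK), normal in potassium at 0.36% K+ (NK) or high in potassium at 1.41% K+ (HK), and they lasted 5 weeks before the cortex of 1 kidney was frozen. Females gave 6 DK, 6 NK and 5 HK libraries and males gave 6 of each, for a study titled for the effects of potassium in salt-sensitive hypertension in both sexes. Because every diet was rich in salt, no group shows the cortex on a low salt intake. Only the sample names tell the libraries of a group apart, and the p-values therefore reflect no more than the spread among the libraries.

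The respiratory chain sits in the inner mitochondrial membrane. Complex I takes electrons from NADH and complex II from succinate, complex III passes them through cytochrome c to complex IV, and complex IV hands them to oxygen. Complexes I, III and IV pump protons as they do so, and ATP synthase lets the protons return to make ATP. Complexes I, III, IV and ATP synthase are built from products of both the nuclear and the mitochondrial genome, whereas every subunit of complex II is nuclear. In the kidney cortex the proximal tubule, which reabsorbs most of the filtered sodium, is rich in mitochondria and relies on this machinery for its ATP.

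Reads assigned to genes, recovered from the deposited values, numbered 13991869 to 28655976 per library, with a median of 14979816. Differences were tested with limma on log2(FPKM + 0.5) over 14264 genes, and a gene was called where its p-value, adjusted over those genes by Benjamini-Hochberg, was under 0.05. All log2 changes below are on this scale, which understates the change of genes near 0. The labels number the samples in series of 200s and 300s whose meaning is not given: 4 of 6 female NK and 5 of 6 male DK libraries had numbers in the 200s, and the 26 others had numbers in the 300s. In a bulk sample, fewer cells of a type and less RNA per cell cannot be told apart. Summed FPKM of 13 proximal tubule markers ran from 4392 to 6432 in female DK, with a median of 5309, and from 3824 to 5423 in female NK, with a median of 5031. In males the same sum ran from 4156 to 4435 on DK, with a median of 4194, and from 2715 to 4256 on NK, with a median of 3669.

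The highest FPKM values were those of mitochondrially encoded members. Mt-co1 (mitochondrial chromosome, 5323 to 6867 in the table's coordinates), the catalytic subunit of complex IV, averaged 27263 FPKM over the 35 libraries. Mt-atp6, which forms part of the proton path of ATP synthase, averaged 19587 FPKM. The other complex IV subunits Mt-cox3 and Mt-co2 averaged 17127 and 12812 FPKM, and Mt-cytb, the cytochrome b of complex III, averaged 9587 FPKM. These 5 genes stood above all nuclear members and above all 7 mitochondrial complex I subunits.

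The 7 mitochondrial complex I subunits, which form the proton-pumping membrane arm, spanned a wide range. Mt-nd1 averaged 6950 FPKM and Mt-nd2 4814 FPKM, followed by Mt-nd3 at 2567, Mt-nd4l at 2486, Mt-nd5 at 1932, Mt-nd6 at 1503 and Mt-nd4 at 742 FPKM. Mt-atp8, a small subunit of ATP synthase, was lowest at 81.8 FPKM, a median of 243 reads per library. Mt-atp8 (7758 to 7961) shares 43 bases with its neighbour Mt-atp6 (7919 to 8599), which averaged 239.5 times its level, and Mt-nd4l shares 7 bases with Mt-nd4. How reads on shared bases were counted is not given here, so the levels of these genes beside their neighbours are uncertain. Mt-nd5 (11736 to 13565) and Mt-nd6 (13543 to 14061) lie on opposite strands and share 23 bases. The labels describe both a directional and a non-directional library without saying which was used, so reads from these shared bases cannot be assigned to a strand.

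Among nuclear members the catalytic subunits of ATP synthase, Atp5b at 1992 FPKM and Atp5a1 at 1206 FPKM, were the highest. They were followed by the complex IV subunits Cox8a at 1119, Cox6a1 at 979 and Cox4i1 at 834 FPKM, which are the widely expressed isoforms. In complex II the membrane anchor Sdhc was highest at 399 FPKM and its partner Sdhd lowest at 247 FPKM. In complex III the Rieske iron-sulfur protein Uqcrfs1 was highest at 326 FPKM and Uqcrb lowest at 26.2 FPKM. Ndufb9 was the highest nuclear complex I subunit at 262 FPKM.

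At the low end, several rows may be copies that share reads with a near-identical gene. They are the Ndufa13 row on chromosome 7 (1.08 FPKM), 2 rows named Atp5f1 on chromosome 2 (the lower at 2.44 FPKM), the Ndufa1 row on chromosome X (0 to 156 FPKM across libraries), the Cox6b1 row on chromosome 2 and Ndufv3-ps1, and their values are uncertain. The member nearest the filter was Cox4i2, an isoform known from lung and from low oxygen, which averaged 0.713 FPKM and reached 1 FPKM in 7 libraries. Of the 5 genes under the filter, Sdhaf1 averaged 0.123 FPKM, Cox8c averaged 0.00341 FPKM, and Ndufb4l1, Cox7b2 and Cox6c1 were listed at 0 in every library. Cox7a1 and 7 further subunits, Ndufa3, Ndufa12, Ndufab1, Ndufb1, Ndufb4, Ndufs6 and Uqcr11, were not matched by name and are not analysed here.

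The mitochondrial share of reads was highest in males on DK. The 13 genes took 12.1% ± 0.783 (SD, n = 6) of the reads in male DK libraries, 9.63% ± 1.28 (n = 6) in male NK and 10.6% ± 1.63 (n = 6) in male HK. The male DK libraries ran from 11.5% to 13.5% and the male NK libraries from 7.69% to 11.4%, so these groups did not overlap. Female libraries gave 10.5% ± 1.07 on DK (n = 6), 11.2% ± 0.813 on NK (n = 6) and 9.93% ± 0.846 on HK (n = 5), with overlapping ranges.

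The 90 nuclear members together took 2.14% ± 0.169 of the reads in female DK, 2.14% ± 0.214 in female NK and 2.08% ± 0.120 in female HK. In males they took 2.06% ± 0.146 on DK, 1.90% ± 0.0861 on NK and 1.94% ± 0.170 on HK. The nuclear share was thus level across the female diets. The deposited FPKM carry a further factor per library, between 0.813 and 1.16, and on that scale most nuclear members were higher in female DK than in female NK.

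**Figure D1:**
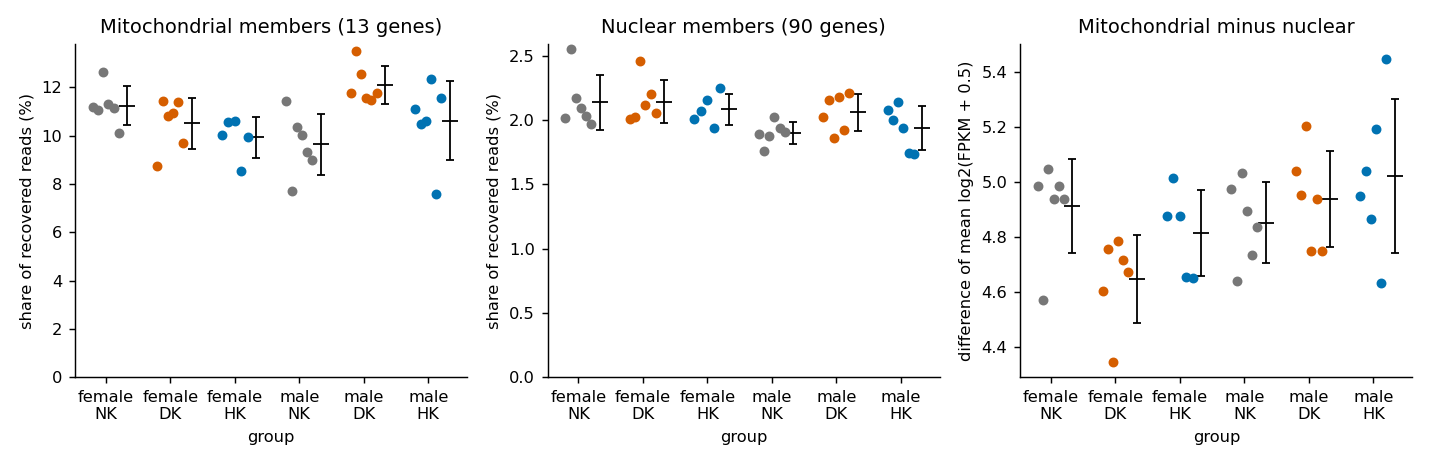
Share of recovered reads (%) taken by the 13 mitochondrial members and by the 90 nuclear members, and the mean log2(FPKM + 0.5) of the mitochondrial members minus that of the 76 nuclear subunits, in 35 libraries of 6 groups. Each dot is 1 library, the bar is the group mean and the whiskers are 1 SD. Male DK libraries lie above male NK libraries in the first panel, and female DK libraries are low in the third, whose axis does not start at 0.

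The balance of the genomes was expressed as the mean log2 value of the 13 mitochondrial members minus that of the 76 nuclear subunits. In female DK libraries it was lowest at 4.34, had a median of 4.69 and reached 4.78, and in female NK it ran from 4.57 over a median of 4.96 to 5.05. All female NK libraries but replicate 2, at 4.57, lay above all female DK libraries. Female HK ran from 4.65 over a median of 4.87 to 5.01.

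Male DK libraries ran from 4.75 over a median of 4.94 to 5.20, male NK from 4.64 over 4.87 to 5.03 and male HK from 4.63 over 4.99 to 5.45. These ranges overlapped. DK minus NK was -0.26 in females and 0.09 in males, so the difference between the sexes' changes was 0.35. As the members were chosen with earlier results known, no test is given for this score. Taken as medians over genes instead of means, the female difference was -0.57 and the difference between the sexes 0.57. Taken as summed FPKM of the mitochondrial members over that of the nuclear subunits, the female groups overlapped more. This ratio ran from 4.01 to 5.36 in female DK, from 4.15 to 5.66 in female NK and from 4.25 to 5.02 in female HK.

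In females on the potassium-deficient diet 28 of 103 members rose and 2 fell against NK, whereas 39.1% of all 14264 genes were called in this comparison and 19.7% were called higher. The 28 that rose were all nuclear, and 29 of 90 nuclear members (32.2%) were called in all, a share below that of all genes. By sign, 76 of 90 nuclear and 8 of 13 mitochondrial members had a change above 0. The median change was 0.21 for the 76 nuclear subunits, 0.07 for the factors and 0.01 for the 13 mitochondrial members, beside -0.01 for all genes. Among nuclear subunits 12 of 33 in complex I rose (median 0.26), 1 of 4 in complex II (median 0.23), 1 of 7 in complex III (median 0.20), 5 of 16 in complex IV (median 0.23) and 4 of 16 in ATP synthase (median 0.13). No nuclear subunit fell. Within complex I, 3 of 7 core subunits and 9 of 26 accessory subunits rose.

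These directions depended on the scaling: with values scaled to library sums 9 members rose and 8 fell, and with quantile normalization 9 rose and 26 fell. Library sums moved the median of all genes to -0.17, so that a change of 0 under that scaling lies above the median gene. The number of called members was 14 without female DK replicate 3, 49 without female NK replicate 2, 17 without NK replicate 1, and 18 each without DK replicate 5, NK replicate 5 or NK replicate 6. A covariate for the number series left 11 that rose and 1 that fell. How many of all genes were called under these alternatives is not given, here or for the other comparisons. A changed count of members is therefore not read as particular to the members.

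**Figure D2:**
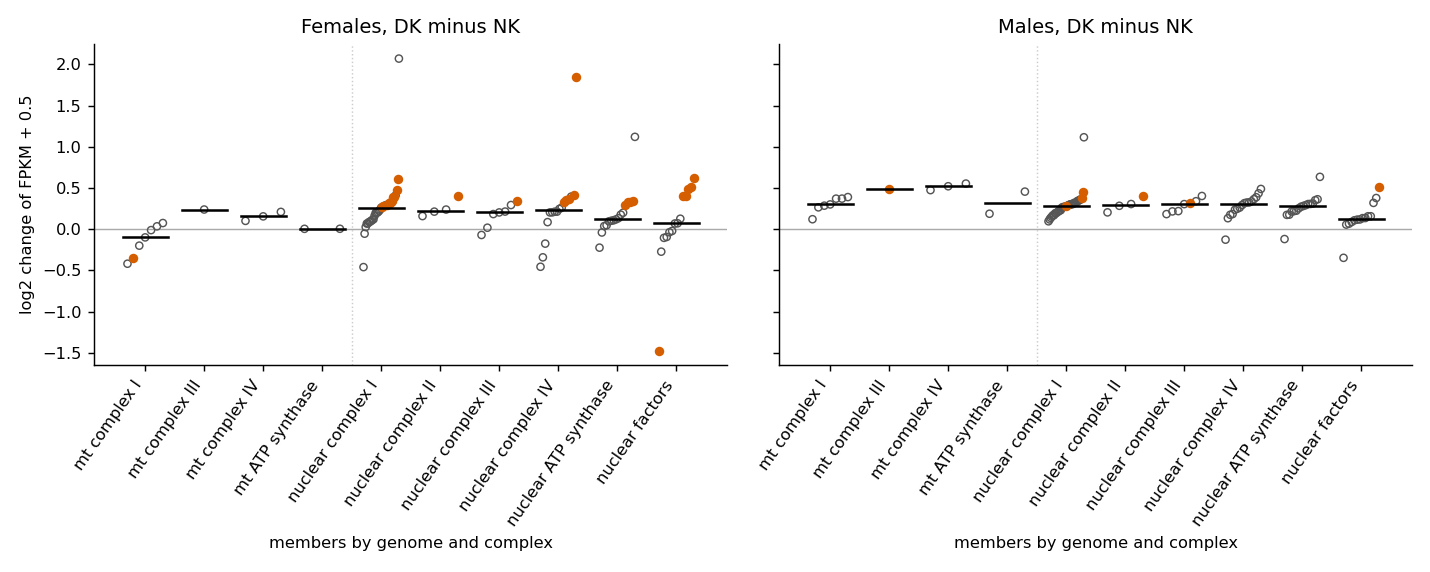
log2 change of FPKM + 0.5 in DK minus NK for each of the 103 members, by genome (mt, mitochondrial) and complex, in females and in males. Filled dots passed the adjusted threshold, open dots did not, and bars are medians. In females the nuclear complexes lie mostly above 0 and mitochondrial complex I around or under it, and in males nearly all members lie above 0.

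Summed over a complex, nuclear complex I subunits reached 6132 ± 1110 FPKM (SD, n = 6) in female DK and 5111 ± 912 in female NK, and complex II subunits reached 1582 ± 182 and 1328 ± 209 FPKM. Complex III subunits summed to 1580 ± 221 and 1350 ± 239 FPKM, complex IV subunits to 7775 ± 1521 and 6457 ± 1267 FPKM, and ATP synthase subunits to 8985 ± 1274 and 8207 ± 1548 FPKM. The difference was larger than both groups' SDs for complex II, lay between them for complexes I, III and IV, and was smaller than both for ATP synthase. Mitochondrial complex I genes summed to 21199 ± 2930 FPKM in DK and 23054 ± 1931 in NK, and mitochondrial complex IV genes to 66755 ± 10534 and 60223 ± 8353 FPKM, differences smaller than both groups' SDs.

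Complex I held the clearest single subunit. Ndufa6 (chromosome 7, 123583062 to 123586919 in the table's coordinates, whose build is not given), an accessory subunit, ran from 286 over a median of 384 to 490 FPKM in female DK and from 205 over 234 to 316 FPKM in female NK. The highest NK library, replicate 2, reached into the DK range. The change was 0.61 ± 0.12 (SE) with an adjusted p of 1.52e-04 by limma, and Ndufa6 stayed called under all 23 alternatives.

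Ndufa7, another accessory subunit, rose by 0.48 ± 0.13 (limma adjusted p = 0.00304), from a mean of 150 to 211 FPKM. Ndufv1, which binds NADH, changed by 0.20 and Ndufs1, which carries iron-sulfur clusters, by -0.05, and neither passed.

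Among complex I assembly factors 2 of 7 rose. Ndufaf6 (chromosome 5, 24297094 to 24320786), a factor needed early in assembly, ran from 12.5 over 15.8 to 20.9 FPKM in female DK and from 8.38 over 9.79 to 11.5 FPKM in NK, without overlap. Its change was 0.62 ± 0.11 with a limma adjusted p of 4.5e-05.

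In complex II, Sdhb (chromosome 5, 159484370 to 159505064), the iron-sulfur subunit, ran from 315 over 427 to 527 FPKM in female DK and from 275 over 305 to 443 FPKM in NK. It rose by 0.40 ± 0.11 (limma adjusted p = 0.00474), though the ranges overlapped and the call was lost with quantile normalization. The factor Sdhaf3 (chromosome 4, 32495321 to 32558798), which helps deliver iron-sulfur clusters to Sdhb, rose by 0.49 ± 0.13 (limma adjusted p = 0.00232), from a mean of 26.7 to 38.2 FPKM. The flavoprotein Sdha changed by 0.16, Sdhc by 0.24 and Sdhd by 0.21, none of which passed.

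In complex III, Uqcrc1, a core protein of the matrix side, rose by 0.34 ± 0.10 (limma adjusted p = 0.00589), from a mean of 270.5 to 343.6 FPKM. Uqcrfs1, at 0.20, did not pass.

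Complex IV showed a minor isoform with a large relative change. Cox6a2 (chromosome 1, 199624037 to 199624783), the isoform of heart and skeletal muscle, ran from 2.02 over 7.68 to 13.4 FPKM in female DK and from 0.569 over 1.46 to 3.71 FPKM in female NK, with overlap. Its change was 1.85 ± 0.40 (limma adjusted p = 4.14e-04), on 2 to 84 reads per library. Markers of skeletal and cardiac muscle, of which 7 of 8 were found, summed to 0.680 to 1.38 FPKM in female DK. In female NK they summed to 0.533 to 3.07 FPKM. The 1 marker that was tested was called lower in female DK. Single markers went different ways. Tnnt3 ran from 0.1142 to 0.7397 FPKM in female DK and from 0.1357 to 2.231 in NK, and Actn3 from 0.08079 to 0.4392 and from 0.02288 to 0.1175. Their part in Cox6a2 was not tested.

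The widely expressed partner Cox6a1 rose by 0.35 (limma adjusted p = 0.0303), from a mean of 998 to 1287 FPKM, and Cox4i1 rose by 0.42 ± 0.13 (limma adjusted p = 0.0107), from 827 to 1110 FPKM. Cox4i2 changed by -0.46, Cox6b2, a testis isoform, by -0.34 and Cox8a by 0.09, none of which passed. Cox8b, the partner of Cox8a known from muscle and brown fat, reached 28.7 FPKM in female NK replicate 4 and had a median of 0.331 FPKM in that group. The same library held 51.8 FPKM of Ucp1 and 46.9 FPKM of Adipoq, genes of brown and of all fat cells. The part of fat in the other members' values was not tested, and without this library 20 members were called.

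The factors related to complex IV moved apart. Cox7a2l (chromosome 6, 6695827 to 6709783), which helps join complexes III and IV into supercomplexes, ran from 103 over 128 to 173 FPKM in female DK and from 83.0 over 86.5 to 121 FPKM in NK. All NK libraries but replicate 2, at 121 FPKM, lay below all DK libraries. The change was 0.51 ± 0.10 (limma adjusted p = 2.1e-04).

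Ndufa4l2 (chromosome 7, 70821957 to 70824085), a relative of the complex IV subunit Ndufa4 and a known target of hypoxia-inducible factor, was one of the members that fell. It ran from 0.0822 over 0.437 to 0.990 FPKM in female DK and from 1.45 over 1.94 to 3.83 FPKM in NK, without overlap, on 1 to 59 reads per library. The change was -1.47 ± 0.20 (limma adjusted p = 4.92e-07). Ndufa4 itself changed by 0.21 and did not pass.

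In ATP synthase the catalytic pair Atp5a1 and Atp5b changed by 0.11 and 0.04 and did not pass. Of the 3 genes for the membrane c-ring, which turns as protons pass, Atp5g1 rose by 0.33 (limma adjusted p = 0.0333) and Atp5g2 by 0.33 (limma adjusted p = 0.0231), with quantile normalization turning both below 0. Atp5g3 changed by 0.05 and did not pass. Atpif1, the inhibitor that stops the enzyme from running backwards and which is not a member by its name, rose from a mean of 266.5 to 486.1 FPKM, a change of 0.85 ± 0.14 (limma adjusted p = 1.6e-05).

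**Figure D3:**
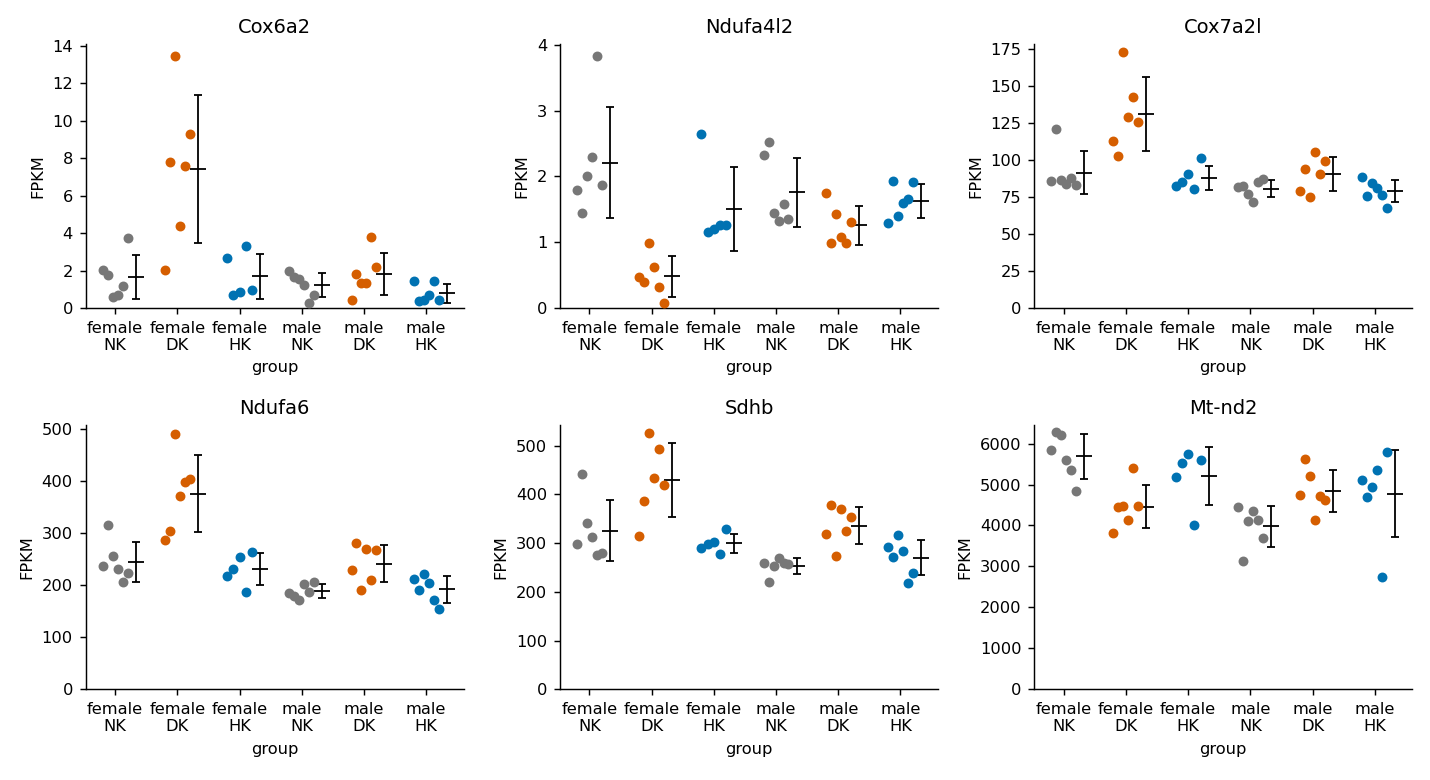
FPKM of 6 members in the 35 libraries of 6 groups; each dot is 1 library, with the group mean and 1 SD beside it. Female DK libraries are high for Cox6a2, Cox7a2l, Ndufa6 and Sdhb and low for Ndufa4l2, and female NK libraries are the highest group for Mt-nd2.

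Promoter sequences are given for 5 of the nuclear members with large changes in females on DK, 4 of which rose against NK or HK and 1 of which fell. The sequences are from RefSeq on build GRCr8 and run 5′ to 3′ along the gene, from 250 bases before the start to 50 bases after it. Each letter in capitals belongs to a match, on either strand, to 1 of 5 short motifs: GCGCANGCG of NRF1, CCGGAAGT of GABP, AAGATGGCG of YY1, AAGGTCA of the estrogen-related receptors, and ACGTG of hypoxia-inducible factor. The first 4 belong to factors known for regulating respiratory genes. Ndufa6 lies at chr7:115750268-115750567 on the minus strand, Sdhaf3 at chr4:36066713-36067012 on the plus strand, Cox5b at chr9:46417587-46417886 on the plus strand, Ndufa4l2 at chr7:65241919-65242218 on the plus strand and Cox6a2 at chr1:192219667-192219966 on the minus strand.
Ndufa6: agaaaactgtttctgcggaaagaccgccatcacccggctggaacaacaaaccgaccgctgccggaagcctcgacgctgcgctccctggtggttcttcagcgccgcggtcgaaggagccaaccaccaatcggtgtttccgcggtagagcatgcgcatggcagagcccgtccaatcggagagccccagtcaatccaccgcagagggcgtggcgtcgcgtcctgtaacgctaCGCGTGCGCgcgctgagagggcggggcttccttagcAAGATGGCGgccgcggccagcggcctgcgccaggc
Sdhaf3: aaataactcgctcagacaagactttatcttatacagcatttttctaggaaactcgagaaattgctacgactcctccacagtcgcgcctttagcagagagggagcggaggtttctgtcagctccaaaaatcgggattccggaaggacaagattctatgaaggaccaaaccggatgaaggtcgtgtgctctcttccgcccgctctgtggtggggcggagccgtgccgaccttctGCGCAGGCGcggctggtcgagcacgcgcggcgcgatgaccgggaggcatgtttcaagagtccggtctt
Cox5b: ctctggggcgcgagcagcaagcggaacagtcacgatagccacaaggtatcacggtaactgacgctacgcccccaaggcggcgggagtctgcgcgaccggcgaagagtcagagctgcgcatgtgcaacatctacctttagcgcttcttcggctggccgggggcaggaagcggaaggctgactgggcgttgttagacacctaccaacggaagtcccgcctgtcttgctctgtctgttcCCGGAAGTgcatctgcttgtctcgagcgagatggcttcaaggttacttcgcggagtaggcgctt
Ndufa4l2: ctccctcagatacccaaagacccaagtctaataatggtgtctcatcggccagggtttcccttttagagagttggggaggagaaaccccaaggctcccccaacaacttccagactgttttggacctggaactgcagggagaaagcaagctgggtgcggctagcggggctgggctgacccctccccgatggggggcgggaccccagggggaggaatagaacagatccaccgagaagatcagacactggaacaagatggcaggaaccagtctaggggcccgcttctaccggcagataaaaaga
Cox6a2: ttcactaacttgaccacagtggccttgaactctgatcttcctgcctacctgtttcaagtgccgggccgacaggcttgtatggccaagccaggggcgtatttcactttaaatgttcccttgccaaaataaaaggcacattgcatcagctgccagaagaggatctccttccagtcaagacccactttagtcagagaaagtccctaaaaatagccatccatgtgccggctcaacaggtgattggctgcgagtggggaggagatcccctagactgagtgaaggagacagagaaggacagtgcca

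The Ndufa6 promoter holds an NRF1 match on the opposite strand 21 bases before the start and a YY1 match 16 bases after it. Sdhaf3 holds an NRF1 match 18 bases before the start and Cox5b a GABP match 14 bases before it. In the windows of Ndufa4l2 and Cox6a2 none of the 5 motifs was found, which says only that these letters are not in the 300 bases. All 90 nuclear members were matched to RefSeq, 72 by symbol and 18 by an older symbol, and 79 had a promoter, of which 76 were different.

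Over these 76 promoters 19 held the NRF1 motif (25%, beside 5.8% of all 33469 promoters) and 9 the YY1 motif (11.8%, beside 1.73%). The GABP motif was in 8 (10.5%, beside 3.81%), the estrogen-related receptor motif in 9 (11.8%, beside 4.61%) and ACGTG in 22 (28.9%, beside 19.3%). By complex, the NRF1 motif was in 8 of 34 promoters of complex I, 3 of 7 of complex II, 1 of 6 of complex III, 1 of 14 of complex IV and 6 of 15 of ATP synthase, factors included. The comparison set of all promoters was not matched to the members in base composition or expression. The shares are therefore not read as particular to respiratory genes. A match describes the sequence and does not show binding.

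Of the 13 mitochondrial members in females, Mt-nd2 (3904 to 4942), a membrane subunit of complex I, fell. It ran from 3806 over 4460 to 5395 FPKM in female DK and from 4843 over 5728 to 6272 FPKM in NK, so the ranges overlapped. The change was -0.35 ± 0.14 (limma adjusted p = 0.0408), and the call was kept in 10 of 23 alternatives. Mt-nd4l changed by -0.42 (limma adjusted p = 0.056) and Mt-nd4 by -0.20, and neither passed. At the other end Mt-cytb changed by 0.24, Mt-co2 by 0.21, Mt-cox3 by 0.16 and Mt-co1 by 0.10 without passing. The remaining 6, Mt-nd1, Mt-nd3, Mt-nd5, Mt-nd6, Mt-atp6 and Mt-atp8, changed by between -0.10 and 0.07.

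In males on DK nearly the whole chain lay higher on the deposited scale, but few single genes passed. The deposited factor, which divides the reads of a library, ran from 0.962 to 1.03 in male DK and from 1.08 to 1.16 in male NK. Its part in the male changes was not tested, and the number series was nearly confounded with diet in these groups. All 13 mitochondrial members and 100 of 103 members in all had a positive change against NK, with a median of 0.37 for the mitochondrial members, 0.28 for the nuclear subunits and 0.13 for the factors, beside -0.00 for all genes. Of 103 members 7 rose and 0 fell, where 4.77% of all genes were called and 2.92% were called higher. They were 3 of 33 nuclear subunits of complex I, 1 of 4 of complex II, 1 of 7 of complex III, 0 of 16 of complex IV, 0 of 16 of ATP synthase, 1 of 14 factors and 1 of 13 mitochondrial members. At an unadjusted p under 0.05, 56 of 103 members and 2932 of 14264 genes passed.

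Mt-cytb was the mitochondrial member that rose in males. It ran from 9834 over 10861 to 12058 FPKM in male DK and from 5747 over 8062 to 9315 FPKM in male NK, without overlap. The change was 0.49 ± 0.14 (limma adjusted p = 0.0400) and was kept in 9 of 22 alternatives. Mt-co2 at 0.55 (limma adjusted p = 0.0514), Mt-co1 at 0.52 (0.0549), Mt-cox3 at 0.47 (0.0674) and Mt-atp6 at 0.46 (0.0716) did not pass, and their groups did not overlap. The share of all genes whose groups did not overlap is not given here, for this or any other comparison. The mitochondrial complex IV genes summed to 66285 ± 5797 FPKM (SD, n = 6) in male DK and 46751 ± 7314 in male NK.

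**Figure D4:**
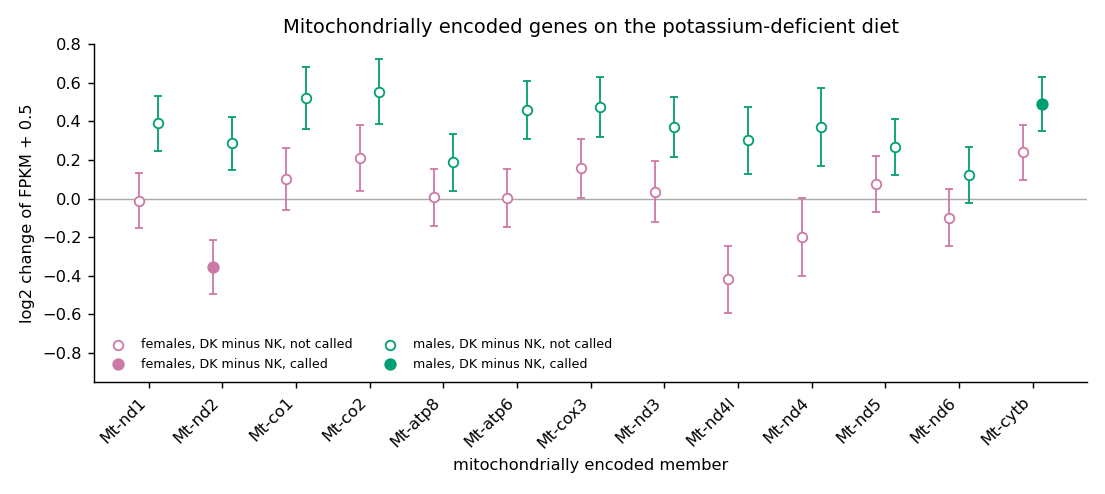
log2 change of FPKM + 0.5 in DK minus NK for the 13 mitochondrial members in females and males, in order along the mitochondrial chromosome, with 1 SE. Filled dots passed the adjusted threshold: Mt-nd2 in females at -0.35 and Mt-cytb in males at 0.49. The male value is above the female value for all 13 genes.

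Among nuclear members in males the factor Sdhaf3 rose most, by 0.52 ± 0.13 (limma adjusted p = 0.0152). It ran from 25.5 over 30.4 to 34.02 FPKM on DK and from 17.2 over 20.6 to 23.5 FPKM on NK, without overlap. Its partner Sdhb rose by 0.40 ± 0.11 (limma adjusted p = 0.0324), from 220 over 258.3 to 269.7 FPKM on NK to 273.3 over 340 to 377 FPKM on DK, also without overlap. Complex I gave the accessory subunits Ndufa2 at 0.45 (limma adjusted p = 0.0386) and Ndufc2 at 0.38 (0.0459). The complex III core protein Uqcrc2 rose by 0.31 (limma adjusted p = 0.0479).

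From separate sets of libraries, 4 members rose in both sexes, Ndufa2, Sdhaf3 and Sdhb among them, which is 4 of the 28 that rose in females and 4 of the 7 that rose in males. Of all 14264 genes 2804 were called higher in females and 416 in males. How many of those were shared is not given here, so the 4 members are not read as agreement between the sexes. The genes that moved most in females were not called in males: Cox6a2 changed by 0.39 (limma adjusted p = 0.63), Ndufa6 by 0.35 (0.0862) and Ndufa4l2 by -0.35. Atpif1 changed by 0.37 (limma adjusted p = 0.127). Of these 4 genes the difference between the sexes was called for Ndufa4l2 and not for Cox6a2, Ndufa6 or Atpif1.

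The number of male calls changed when single libraries were left out. Without male DK replicate 2, 4 or 6 or male NK replicate 2 or 3, 1 member was called, without DK replicate 5 or NK replicate 5, 2, without NK replicate 1 or 6, 4, and without DK replicate 3, 14. Since 5 of 6 male DK and no male NK libraries had numbers in the 200s, the number series and the diet are nearly confounded in males, and with it as a covariate 0 members were called.

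On the high potassium diet 0 members were called against NK by limma in either sex, as were 0% of all genes in females and 0% in males. At an unadjusted p under 0.05, 3 of 103 members passed in females, beside 381 of 14264 genes, and 2 in males, beside 1076, and limma with voom weights on the recovered reads also called 0 in both. The median change was -0.09 in females, with -0.22 over the mitochondrial members, and 0.04 in males, with 0.20 over the mitochondrial members. In females Mt-co2 changed by -0.36 ± 0.18 and in males Mt-nd5 by 0.37 ± 0.15, without passing. The difference between the sexes in the HK change was called for 0 members and for 0% of all genes by limma, with 4 members and 805 of 14264 genes at an unadjusted p under 0.05 and 0 by voom, while the mitochondrial members had a median difference of 0.42 and all 13 were above 0.

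Female DK was also compared with HK. This comparison and that with NK use the same DK libraries, so their counts are given side by side with no test between them: 43 members rose and 1 fell against HK, where 36.4% of all genes were called and 18.6% called higher, and 28 rose and 2 fell against NK. Among nuclear subunits 18 of 33 rose in complex I, 3 of 4 in complex II, 3 of 7 in complex III, 8 of 16 in complex IV and 5 of 16 in ATP synthase. With library sums 13 members rose and 6 fell, and with quantile normalization 9 rose and 14 fell.

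Cox6a2 rose by 1.82 against female HK (limma adjusted p = 9.26e-04), Sdhaf3 by 0.70 (1.13e-04) and Ndufa6 by 0.69 (6.9e-05). The complex IV subunit Cox5b rose by 0.65 (limma adjusted p = 0.0129), from a mean of 321 to 495 FPKM, with overlapping ranges, and Cox7a2l by 0.56 (1.5e-04). Mt-co2, which holds the copper center that receives electrons from cytochrome c, was the mitochondrial member that rose, from 10242 to 15478 FPKM, by 0.57 ± 0.18 (limma adjusted p = 0.0114). Ndufa4l2 fell by 1.04 on the log2 scale (limma adjusted p = 1.88e-04), and its DK and HK libraries did not overlap.

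In males 3 members rose and 0 fell in DK against HK, where 4.32% of all genes were called and 2.7% called higher. Among them were the complex I assembly factor Ndufaf3 at 0.43 (limma adjusted p = 0.0440) and the accessory subunit Ndufc1 at 0.39 (0.0496). Ndufaf3 ran from 18.01 over 21.8 to 26.4 FPKM on DK and from 12.9 over 16.6 to 17.4 FPKM on HK, without overlap. No member was called without male DK replicate 2, 4, 5 or 6 or male HK replicate 2, 4, 5 or 6, and 7 were without DK replicate 3.

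The DK change itself differed between the sexes for 3 members, where 9.96% of all genes were called. Ndufa4l2, which fell in females, differed by 1.13 ± 0.28 (males minus females, limma adjusted p = 0.00755), Mt-nd2 by 0.64 ± 0.20 (0.0319) and Ndufaf6 by -0.55 ± 0.16 (0.0208). For Mt-nd2 this sets a female change of -0.35 beside a male change of 0.29, and for Ndufaf6 a female mean of 15.7 FPKM on DK and 9.97 on NK beside male means of 10.98 and 10.44. The median difference was 0.34 over the mitochondrial members, with all 13 above 0, and 0.07 over the nuclear subunits. With quantile normalization 20 members were called higher and 1 lower, with library sums 6 higher and 2 lower, and a covariate for the number series left 0. Leaving out female DK replicate 1 gave 5 calls and leaving out female NK replicate 2 gave 6.

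On the normal potassium diet males lay below females across the chain. Of 103 members 38 were lower and 0 higher in males, where 21% of all genes were called and 11.2% called lower, and the median was -0.31 over all members. The mitochondrial members had a median of -0.35 with 0 of 13 above 0, and 3 of them were called lower. Among nuclear subunits 18 of 33 in complex I, 3 of 4 in complex II, 1 of 7 in complex III, 2 of 16 in complex IV and 7 of 16 in ATP synthase were lower. Quantile normalization gave 29 lower and 0 higher, and library sums 17 lower and 1 higher.

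Mt-nd2 ran from 3122 over 4126 to 4445 FPKM in male NK, below the lowest female NK library at 4843 FPKM, a difference of -0.52 (limma adjusted p = 0.00690). Mt-nd3 differed by -0.48 (limma adjusted p = 0.0266) and Mt-atp6 by -0.42 (0.0432), the latter turning above 0 with quantile normalization. The complex IV subunit Cox7b differed by -0.54 (limma adjusted p = 0.00468), the complex II assembly factor Sdhaf4 by -0.53 (9.69e-04) and Uqcrb by -0.51 (0.00895). Atp5c1, the rotating shaft of ATP synthase, differed by -0.48 (limma adjusted p = 5.59e-04), with 45.8 to 57.3 FPKM in male NK and 64.4 to 98.4 in female NK, without overlap.

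The count was 12 without female NK replicate 2, 21 without female NK replicate 3 and 19 without male NK replicate 2. Of the female NK libraries 4 of 6 had numbers in the 200s and of the male ones none. With the series as a covariate 3 members were called, and among libraries numbered in the 300s, which left 2 female libraries, 0 were. Of all genes 21% were called by sex on NK and 11.2% called lower in males, and markers of cell types were among them. Lower in males were 4 of 13 markers of the proximal tubule, 5 of 7 of intercalated cells and 3 of 6 of podocytes. So were 2 of 4 of the distal convoluted tubule and 2 of 7 of principal cells. Lower too were 1 of 5 endothelial, 1 of 4 adipose and 1 of 4 blood markers. Of 6 thick ascending limb markers 3 were lower and 1 higher, and 4 of 7 leukocyte markers were higher. Their part in the members' values was not tested.

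On the potassium-deficient diet 31 members were lower and 2 higher in males, where 34.4% of all genes were called and 18.3% called lower. All 33 were nuclear, 33 of 90 nuclear members (36.7%), a share near that of all genes. The mitochondrial median was 0.02 with 0 of 13 called, and the nuclear subunit median was -0.26. Lower in males were 14 of 33 nuclear subunits in complex I, 2 of 4 in complex II, 2 of 7 in complex III, 4 of 16 in complex IV and 4 of 16 in ATP synthase. With library sums 13 were lower and 9 higher, and quantile normalization turned the balance to 7 lower and 17 higher.

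Ndufa6 ran from 191 over 248 to 280 FPKM in male DK, below the lowest female DK library at 286 FPKM, a difference of -0.63 (limma adjusted p = 1.33e-04). Cox6a2 differed by -1.73 (limma adjusted p = 0.00103), with means of 1.82 FPKM in males and 7.42 in females, and Cox7a2l by -0.52. Ndufs7, a core subunit that holds the last iron-sulfur cluster before ubiquinone, differed by -0.51, Ndufaf6 by -0.49 and Ndufa7 by -0.46.

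The members higher in males on DK were Ndufa4l2, by 0.88 (limma adjusted p = 7.27e-04), with 0.990 to 1.75 FPKM in males and 0.0822 to 0.990 in females, and the testis isoform Cox6b2, by 0.79 (0.0117). Of the members lower in males, 15 were shared between the NK and the DK comparison, 15 of 38 and 15 of 31. The overlap over all genes, of which 1601 were lower on NK and 2612 on DK, is not given here. On DK 34.4% of all genes were called by sex and 18.3% called lower in males. Lower among the markers were 4 of 13 of the proximal tubule, 2 of 7 of intercalated cells and 2 of 4 of the distal convoluted tubule. So were 1 of 4 adipose markers and the 1 tested adrenal cortex marker. Of 7 principal cell markers 2 were lower and 1 higher. Of 5 endothelial and of 3 inner medulla markers 1 was lower and 1 higher. Higher were 1 proximal tubule, 1 of 6 thick ascending limb, 6 of 7 leukocyte and the 1 tested muscle marker. The part of these markers was not tested either. The count on DK was 50 without female DK replicate 1, 19 without female DK replicate 3 and 21 without male DK replicate 3.

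On the high potassium diet 2 members were lower in males and 0 higher, where 9.92% of all genes were called and 5.9% called lower. Among them was Ndufb10, an accessory subunit of complex I, at -0.37 (limma adjusted p = 0.0496). The median was -0.15 over all members and 0.03 over the mitochondrial ones. The count was 0 without female HK replicate 2, 3 or 5 or male HK replicate 2, 4, 5 or 6, 1 without male HK replicate 1 and 4 without male HK replicate 3.

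Genes that work with the chain were read from lists of non-members. Their counts in DK against NK stand beside 39.1% of all genes called and 19.7% called higher in females, and 4.77% called and 2.92% called higher in males. Of 13 genes of the tricarboxylic acid cycle, which makes the NADH and succinate the chain consumes, 5 rose and 0 fell in female DK against NK, and 6 rose and 0 fell in males. Fumarase, Fh, rose from a mean of 157 to 248 FPKM in females (0.66 ± 0.10, limma adjusted p = 4.17e-06) and from 125 to 163 FPKM in males (0.38 ± 0.10, limma adjusted p = 0.0265). Citrate synthase, Cs, changed by 0.10 and 0.20 and did not pass in either sex.

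Of 12 regulators of mitochondrial biogenesis 2 rose and 1 fell in females and 0 passed in males by limma, where 3 had an unadjusted p under 0.05. Ppara, a receptor that drives fatty acid oxidation, rose by 0.73 ± 0.25 and Nfe2l2, a regulator of antioxidant genes, by 0.36 ± 0.09, while Gabpa, the DNA-binding subunit of GABP, fell by 0.23 on the log2 scale. The coactivators Ppargc1a at 0.05 and Ppargc1b at -0.21, and the factors Esrra at 0.13 and Nrf1 at -0.10, did not pass. Of 24 genes of mitochondrial DNA transcription, RNA and replication 7 rose and 1 fell in females and 3 rose in males. Fastkd1, a mitochondrial RNA-binding protein, rose in both sexes, by 0.53 and 0.35. Lrpprc, which stabilizes mitochondrial messenger RNA, rose by 0.33 and Tfam, which packages mitochondrial DNA, by 0.16 in females, and the mitochondrial RNA polymerase Polrmt, at 0.16, did not pass.

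Of 28 other assembly factors 10 rose and 2 fell in females and 4 rose in males. Lyrm7, which inserts the Rieske protein into complex III, rose in both sexes, by 0.43 and 0.35, and Cox16, a complex IV factor, fell by 0.48 on the log2 scale in females. Among 12 rows of electron carriers and adenylate exchange 6 rose and 2 fell in females and 3 rose in males. Vdac1, the outer membrane channel, rose by 0.50 and 0.32. Both rows named Cycs, cytochrome c, fell in females, by 0.62 and 0.78 on the log2 scale, and because they may share reads their split is uncertain. Cyc1, the cytochrome c1 of complex III, changed by 0.22 in females and did not pass. Of 3 uncoupling and related carriers 2 fell in females, Slc25a30 by 0.99 and Ucp2 by 0.57 on the log2 scale.

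Of 10 genes of dissociation and hypoxia responses 5 rose in females on DK, where 39.1% of all genes were called and 19.7% called higher, and 0 rose and 1 fell in males, where 4.77% were called. Bnip3, a mitochondrial protein induced by low oxygen, rose in females from a mean of 109 to 288 FPKM, by 1.38 ± 0.13 (limma adjusted p = 6.74e-10), and changed by 0.28 in males without passing, a difference between the sexes of -1.09. Also called higher in females were Hmox1 by 1.99, Slc2a1 by 0.86, Vegfa by 0.64 and Pdk1 by 0.52. Adm at -0.14, Fos at -0.84, Egr1 at -0.50, Jun at 0.11 and Hspa1b at 0.32 did not pass. The member Ndufa4l2, also known as induced by low oxygen, fell in the same libraries on few reads. The cause of these changes was not tested.

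Markers of nephron segments were called between the diets as well. In female DK against NK 39.1% of all genes were called, 2804 of 14264 higher and 2780 lower. Of 13 proximal tubule markers 6 were higher and 2 lower, and of 6 thick ascending limb markers 1 was higher and 4 lower. Of 7 intercalated cell markers 3 were higher and 0 lower, and 1 of 4 distal convoluted tubule markers was higher. Of 7 principal cell markers 1 was higher and 2 lower. Lower too were 4 of 6 podocyte, 4 of 7 leukocyte and 2 of 5 endothelial markers. Of 4 adipose markers 1 was higher and 1 lower, and 1 of 3 inner medulla markers was higher. The 1 tested adrenal cortex marker was higher. Adrenal cortex markers summed to between 8.88 and 21.8 FPKM in female DK and between 3.92 and 5.66 in female NK. Intercalated cell markers summed to a median of 364 FPKM in female DK and 251 in female NK. Thick ascending limb markers summed to between 901 and 1687 FPKM in female DK, with a median of 1147, and to between 1413 and 1939 in female NK, with a median of 1732. In males 2 proximal tubule markers and 5 of 7 intercalated cell markers were higher on DK. So were 1 of 4 distal convoluted tubule and 1 of 7 principal cell markers, and 1 of 5 endothelial markers was lower. Also higher in males were the 1 tested adrenal cortex marker, 1 of 4 blood markers and 1 of 3 inner medulla markers. Of all genes 4.77% were called in males and 2.92% called higher. The part of these shifts in the members' values was not tested.

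**Figure D5:**
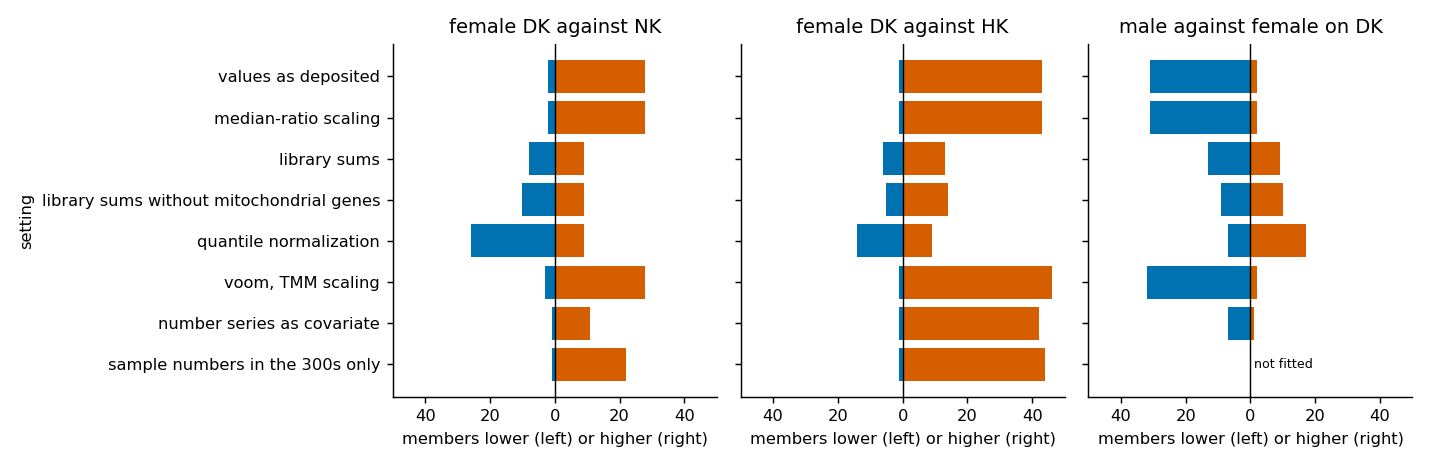
Number of members called lower (left of 0) and higher (right of 0) under 8 settings in 3 comparisons: female DK against NK, female DK against HK, and males against females on DK. The deposited scaling, median-ratio scaling and voom with TMM scaling give nearly the same balance, whereas library sums and quantile normalization shift it toward lower calls in females on DK and toward higher calls in males.

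Spread within a group was similar for all classes of gene. The median within-group SD of log2 values was 0.25 over the mitochondrial members, 0.22 over the nuclear subunits, 0.19 over the factors and 0.22 over all tested genes. Female DK replicate 3 was the highest of the 35 libraries for 47 of 76 nuclear subunits and female NK replicate 2 for 17. Male HK replicate 5 was the lowest for 8 of 13 mitochondrial members and for 27 of 76 nuclear subunits.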

How the data were processed

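Messenger RNA was purified with poly-T beads from Trizol-extracted RNA of the cortex, per the labels' protocols, and the submitters' processing notes list featureCounts 1.5.0-p3, StringTie 1.3.3b, HISAT2 2.0.5 and fastp without their order. No genome build was named in these sources. The authors deposited FPKM per gene, and no table of counts was used. All values (100%) were whole multiples of the value of 1 read within 0.01 read, which gave 13991869 to 28655976 reads per library and a scaling factor per library between 0.813 and 1.16.

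From these values log2(FPKM + 0.5) was fitted with limma 3.58.1 (lmFit, eBayes with a trend) in R 4.3.3, with 6 group means and 29 residual degrees of freedom, over the 14264 genes with at least 1 FPKM in at least 5 libraries. All 11 contrasts were adjusted by Benjamini-Hochberg within the contrast at 0.05. Sums, shares and figures were made with Python 3.11.15, numpy 2.4.6, pandas 2.3.3, scipy 1.17.1 and matplotlib 3.10.9. The fit was also run on simulated reads with known changes, drawn independently for each gene and scaled to library sums. These held no deposited factor and no number series, so the simulation cannot speak to how the calls depend on them.

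Named were every mitochondrial member, up to 6 rises and 6 falls per contrast among called members, fixed isoform pairs, c-ring genes and catalytic subunits, the highest and lowest member per complex, the members nearest the filter, and from each pathway list up to 4 called genes and a fixed set. A few genes that this rule names are not reported here. The members and lists were chosen with earlier results of these data known. Alternatives were other pseudocounts, no filter, 4 other scalings, voom on recovered reads, the number series as a covariate, libraries numbered in the 300s alone, a replicate block, and leaving out each library.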

Additional observations from a re-analysis of the deposited data

Results flagged for a closer look

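Some libraries stood far from the rest of their group, by a gap that chance would give in about 1 in 20 groups. Female NK replicate 2 was far above the other female NK libraries for Cox7a2l (120.81 FPKM), Ndufb10 (196.72), Uqcrc1 (352.1), Ndufv1 (230.46), Cox6a1 (1392.8), Ndufa4 (684.64), Ndufa2 (197 FPKM), Ndufa7 (209.95), Ndufc2 (218.6) and Ndufaf3 (26.915). Its nuclear members took 2.549% of the reads, the highest share of its group, and its mitochondrial minus nuclear value of 4.571 was the lowest. Over all members 70 of 618 groups (11.3%) held such a library, and female NK replicate 2 was the high library in 32 of them.

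Male NK replicate 2 was far below its group for Cox7b (207.56 FPKM), Atp5c1 (45.797) and Sdhb (220.3). Male HK replicate 5 was far below its group for Mt-atp6 (11894 FPKM), Mt-cox3 (9839.3), Mt-cytb (5936.8), Mt-nd1 (4430.1), Mt-nd2 (2741.8) and the nuclear Ndufs1 (99.786). Male DK replicate 2 was far above its group for Mt-co1 (36926 FPKM) and Mt-atp6 (25879).

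Rows of uncertain assignment jumped between libraries. Ndufa1 reached 156.46 FPKM in male NK replicate 1, 131.41 in male DK replicate 4 and 24.114 in female NK replicate 1. The Atp5f1 row starting at 208566385 reached 18.106 FPKM in male DK replicate 2 and 7.1177 in female NK replicate 2. The row starting at 208408890 reached 25.242 FPKM in female HK replicate 3, 14.887 in male NK replicate 5, 11.236 in male DK replicate 5 and 39.94 in female DK replicate 2.

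Single values also stood apart within their groups. Cox8b was high in female NK replicate 4 (28.678 FPKM) and male DK replicate 3 (1.8052), and Ndufa4l2 in female HK replicate 1 (2.6517) and female NK replicate 5 (3.8269). Cox5b (518.83 FPKM) and Ndufs7 (220.53) were high in female HK replicate 5, Atp5g2 (451.57) in male NK replicate 1 and Ndufv1 (169.15) in male NK replicate 4. Mt-nd6 was low in female HK replicate 4 (1068.5 FPKM), Ndufaf3 in male HK replicate 6 (12.934) and Sdhd in male DK replicate 3 (210.31).

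The DK change differed between males and females, by limma's interaction term, for Mt-nd2 (0.64), Ndufaf6 (-0.55) and Ndufa4l2 (1.13), males minus females on the log2 scale. The adjusted p-values were 0.0319, 0.0208 and 0.00755, and none of the 3 was called with the number series as a covariate.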

How the results depend on the processing

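Members called, in the order female DK against NK, male DK against NK, female DK against HK, male DK against HK, sex by DK against NK, and males against females on NK, DK and HK, numbered 30, 7, 44, 3, 3, 38, 33 and 2. Scaling to library sums gave 17 in female DK against NK, 19 in female DK against HK, 8 for the sex difference, and 18 on NK and 6 on HK for males against females. Library sums without mitochondrial genes gave 19 in female DK against NK, 19 against HK, 11 for the sex difference and 19 for males against females on DK. Quantile normalization gave 23 in female and 6 in male DK against HK, 21 for the sex difference and 5 on HK for males against females. The number series as a covariate gave 12 in female and 0 in male DK against NK, 0 in male DK against HK, 0 for the sex difference, and 3, 8 and 1 for males against females on NK, DK and HK. Without the filter on low values the counts were 3 in male DK against NK, 0 against HK, 24 on NK and 0 on HK for males against females. Voom gave 12 in male DK against NK and 4 for males against females on HK, a pseudocount of 0.1 gave 1 there, and libraries in the 300s alone gave 0 on NK. With the replicate block the counts were 2 in male DK against NK, 0 against HK and 0 for males against females on HK. Replicate numbers did not pair the samples: 13 of 85 same-numbered pairs of libraries correlated above 0.1, and 6 of 35 libraries correlated best with their own number. Leaving out each library gave 14 to 49, 1 to 14, 31 to 58, 0 to 7, 2 to 6, 12 to 51, 19 to 50 and 0 to 4 members in the order above. The number of all genes called under each alternative is not given beside these counts.

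For the mitochondrial minus nuclear difference, medians of log2 values gave -0.57 in female DK against NK, -0.53 against HK and 0.57 for the sex difference, and log2 of summed FPKM gave 0.00094 in female DK against HK. Restricting the nuclear subunits to those of at least 10 FPKM in every library, chosen after seeing the data, left all 11 differences within 1 SD. Leaving out each library gave -0.33 to -0.20 in female and 0.03 to 0.13 in male DK against NK. With quantile normalization Atp5g2 (-0.075) and Atp5g1 (-0.053) reversed in female DK against NK. Against HK it reversed Atp5g2 (-0.038), Atp5g1 (-0.029), Sdhc (-0.067), Uqcrc1 (-0.00086) and Sdhd (-0.0025). It also reversed Mt-atp6 on NK (0.037) and Uqcrfs1 (0.15), Sdha (0.076) and Sdhb (0.061) on DK for males against females. Of the values for single genes under alternatives 1414 kept their call and 11 reversed, and the rest kept their direction and lost the call. The causes were not tested. Comparisons with male DK among libraries in the 300s alone were not run, since 1 male DK library remained. Depth limits Cox6a2, with 2 to 84 reads per library, and Ndufa4l2, with 1 to 59.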
